A study of Mus musculus with 5 samples.

Results

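Transcripts of the synaptic vesicle and release machinery were followed in mouse glioma and in normal mouse brain. The genes were taken by name from a fixed list of 43 symbols, and array probes were assigned to them through the RefSeq accession that each probe carries. Of the 43 genes, 42 had at least 1 probe, 64 probes in all, among 21154 genes named on the array. Syt5 had no probe with a matching accession. The glioma group held total RNA of 3 brain tumours from a model based on mosaic analysis with double markers (MADM), and the control group held total RNA of 2 normal brains. Both groups were taken at postnatal day 150. No mutated gene, strain, Cre driver or brain region is named in the labels. They also do not say whether replicates were separate animals, so the p-values reflect only how far these samples spread, which may be partly technical. Sex transcripts, given below, place glioma 3 in another animal than gliomas 1 and 2. In MADM, recombination between homologous chromosomes in dividing cells produces sparse mutant cells marked with colour, so a tumour sample can also hold normal tissue.

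Neurotransmitter is released when a vesicle fuses with the presynaptic membrane at the active zone. The vesicle SNARE protein synaptobrevin pairs with syntaxin and SNAP-25 on the plasma membrane, complexins bind the assembled complex, and synaptotagmins trigger fusion on calcium entry. RIM, Munc13, Bassoon and Piccolo organise the release site, and clathrin adaptors and dynamin retrieve the membrane afterwards. In brain most of these proteins are known as neuronal, while general secretion and endosomal traffic use other SNAREs that most cell types express.

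Promoter sequence is shown first, because these genes moved together and several neuronal promoters are known to carry the RE1 element, bound by the repressor REST, or the cAMP response element (CRE). RefSeq promoter windows on GRCm38.p6, each running from 250 bases before to 50 bases after a start site, were supplied for 34 of the 43 genes, 45 windows in all. Searched on both strands, the left arm of RE1, TCAGCACC, lay in 2 of the 45 windows, those of Syn1 and Unc13a, against 1.65% of 32851 windows of all genes. The right arm, GGACAG, lay in 10 windows, 22.2%, the same share as in all windows (22.2%). The full CRE, TGACGTCA, lay in 1 window, that of Syn1, against 1.79% of all windows. Its core TGACG, which every full CRE contains, lay in 8 windows, 17.8%, against 20.8% of all. Syn1, which encodes synapsin I and fell in glioma, is shown from 250 to 101 bases before its start (chrX:20921019-20921168, minus strand), with the RE1 left arm and the CRE in capitals. Syt1 (chr10:109011096-109011175, minus strand) and Slc17a7 (chr7:45163701-45163780, plus strand) fell as well, whereas Syt11 (chr3:88772770-88772849, minus strand) did not pass the test, and the capitals in all 3 mark the RE1 right arm or its reverse complement. These sequences were chosen after the matches were seen, and a match describes letters, not a bound site.
Syn1: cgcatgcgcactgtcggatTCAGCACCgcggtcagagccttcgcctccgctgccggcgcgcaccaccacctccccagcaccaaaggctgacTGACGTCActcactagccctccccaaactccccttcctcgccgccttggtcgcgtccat
Syt1: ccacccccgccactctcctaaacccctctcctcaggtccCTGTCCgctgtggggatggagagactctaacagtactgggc
Slc17a7: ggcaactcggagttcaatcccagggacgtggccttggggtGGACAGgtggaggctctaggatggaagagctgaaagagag
Syt11: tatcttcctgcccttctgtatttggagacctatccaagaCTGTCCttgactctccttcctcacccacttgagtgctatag

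Each sample was hybridised to 1 single-colour Agilent array. Between 61.45% and 70.3% of the spots were well above background, and saturation was not reached outside the control spots. The slide was shared by all arrays, with the gliomas in row 1 and the normal brains in row 2, so slide row and group cannot be told apart. Xist was well above background on glioma array 3 alone, where Ddx3y and Eif2s3y were not, whereas the other 4 arrays showed the converse, so sex differed within the glioma group. Levels below are log2 signal minus the array's 75th percentile, so a level of 0 is that percentile; they compare arrays for a gene, not genes with each other. Changes are log2 glioma over normal brain ± standard error of the limma fit (n = 3 and n = 2), with p-values adjusted over all 16891 genes tested.

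Most of the release machinery was lower in the gliomas. Of the 42 genes with a probe, 36 fell, none rose and 6 did not pass, at an adjusted p under 0.05. Across all genes tested, 27.8% were called lower, 23.6% higher and 51.4% in either direction. The median log2 change of the 42 genes was -2.61, against -0.05 for all genes tested. Falls reached 4-fold or more in 31 of the 42, where 9.63% of all genes fell that far. On 39 genes every glioma array lay below both normal brain arrays, which held for 38.8% of all genes tested; groups without overlap in either direction made up 74.1%. All 42 genes passed the filter of being well above background on at least 2 arrays. Syt2 and Syt12 passed it only through the normal brain arrays, and both count among the 36, 31 and 39 above. Of the 40 detected on all 5 arrays, 34 fell. In bulk tissue, fewer neurons and less RNA per neuron cannot be told apart. The number of calls among all genes was 8687, but 4630 without normal brain replicate 1 and 4649 without replicate 2, while 35 of the release genes fell in both cases.

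**Figure D1:**
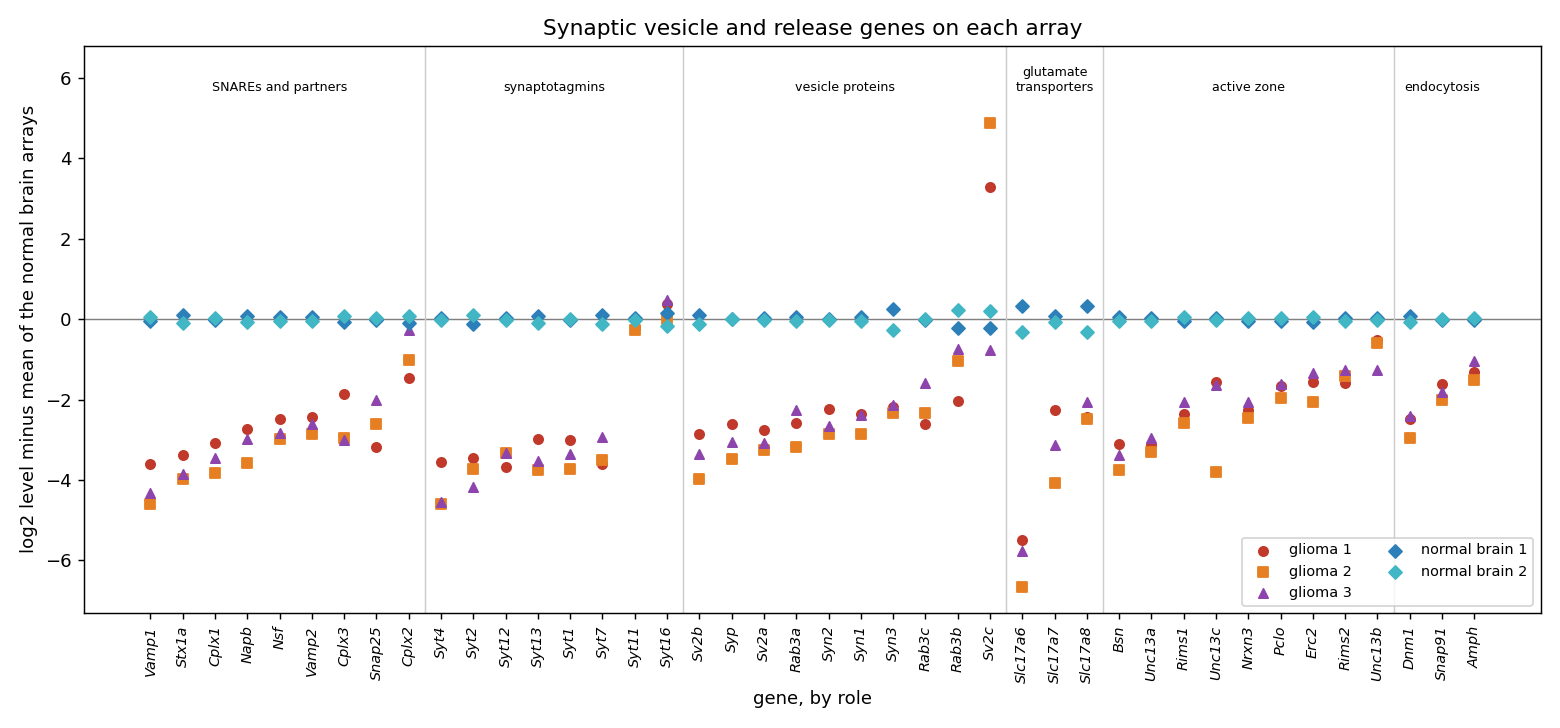
Log2 level of each of the 42 genes on each array, minus the mean of the normal brain arrays, with genes grouped by role and ordered by change. Points are single arrays; apart from Syt11, Syt16 and Sv2c, all glioma points lie below both normal brain points, and Slc17a6 lies lowest at changes near -6.

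The fusion machinery itself fell, with 8 of 9 genes called. Snap25, the plasma membrane SNARE, lay at 3.26, 3.83 and 4.43 on glioma arrays 1 to 3 and at 6.42 and 6.46 on the normal brain arrays. The groups did not overlap, and Snap25 fell by 2.60 ± 0.36, or 6.06-fold (adjusted p = 0.00342). Its syntaxin partner Stx1a lay at -0.13, -0.72 and -0.60 against 3.34 and 3.14, and fell by 3.73 ± 0.22, or 13.2-fold (adjusted p = 0.000475). The main vesicle SNARE of forebrain, Vamp2, lay at 3.07, 2.67 and 2.90 against 5.56 and 5.46, and fell by 2.63 ± 0.17. Its relative Vamp1, known from brainstem, spinal cord and motor neurons, lay at 0.56, -0.44 and -0.16 against 4.12 and 4.21. Vamp1 fell 18.1-fold (-4.18 ± 0.32, adjusted p = 0.000681), further than any other gene of this group. Nsf, the ATPase that takes spent SNARE complexes apart, and Napb, its brain adaptor beta-SNAP, fell 6.77-fold and 8.58-fold.

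Complexins clamp and then promote fusion, and 2 of the 3 fell on their brightest probe. Cplx1 lay at 3.20, 2.44 and 2.81 in glioma against 6.25 and 6.29, a fall of 3.45 ± 0.25, or 10.9-fold (adjusted p = 0.000625). Cplx3, known from retina and a few cortical layers, lay at -2.03, -3.13 and -3.19 against -0.25 and -0.10 and fell by 2.61 ± 0.40 on the log2 scale. Cplx2 lay at 5.38, 5.84 and 6.58 against 6.76 and 6.93 on its brightest probe. All gliomas were below both normal brains there, yet the change of -0.91 ± 0.37 did not pass (adjusted p = 0.0947). Without glioma replicate 3, the highest of them, it was -1.24 and passed (adjusted p = 0.0135), as it did with its 4 probes averaged (-1.75, adjusted p = 0.00619). It did not pass without glioma replicate 1 (-0.64, adjusted p = 0.153) or 2 (-0.87, adjusted p = 0.198). On the other 3 probes the change was -3.13, -1.68 and -1.27, and the first and second of these passed (adjusted p = 0.000532 and 0.0134 in a fit over all detected named probes).

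Of 8 synaptotagmins measured, 6 fell and 2 did not pass. Among the 6 are Syt2 and Syt12, which passed the detection filter only through the normal brain arrays. Syt1, the calcium sensor of fast release in forebrain, lay at 3.49, 2.77 and 3.16 against 6.49 and 6.51 and fell 10.3-fold (-3.36 ± 0.24, adjusted p = 0.000612). Syt7, a slower sensor of higher calcium affinity, lay at -3.27, -3.16 and -2.60 against 0.45 and 0.22 and fell by 3.34 ± 0.25. With its 2 probes averaged the change of Syt7 was -2.63, and its dimmer probe gave -1.92. The groups lay well apart for both sensors. Syt4, found on dense-core and other vesicles, lay at -1.86, -2.90 and -2.84 against 1.71 and 1.67, a fall of 18.7-fold (-4.23 ± 0.36, adjusted p = 0.000846). Syt13, which does not bind calcium, lay at 2.22, 1.45 and 1.67 against 5.28 and 5.11 and fell by 3.42 ± 0.26.

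Syt2, the fast sensor of hindbrain synapses, and Syt12 were not well above background on any glioma array. Syt2 was at least 13.8-fold lower in glioma (fitted change -3.79 ± 0.25, adjusted p = 0.000529), from -5.49, -5.75 and -6.20 against -2.14 and -1.91. Syt12 was at least 9.48-fold lower (fitted change -3.43 ± 0.17, adjusted p = 0.000395). Such a bound replaces a glioma value by the lowest signal well above background on its array where that is higher. For Syt2 no value was replaced, so its bound equals the fitted fold and moves with the background correction. Under normexp, a background correction with an added offset, dim probes change less, and the fitted changes were -1.86 for Syt2 and -1.58 for Syt12. These are smaller than the bounds, which hold only with the main background correction.

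Syt11 and Syt16 stood outside this pattern. Syt11, a calcium-independent synaptotagmin also known from astrocytes and microglia, lay at 5.43, 5.39 and 5.70 in glioma and at 5.67 and 5.63 in normal brain. The groups overlapped, with a change of -0.14 ± 0.16 (adjusted p = 0.50). Syt16 lay at 1.80, 1.42 and 1.90 against 1.57 and 1.26, again with overlap (0.29 ± 0.21, adjusted p = 0.291). In the values the authors deposited, which carry no scaling between arrays and where the median of all genes was 0.31, these changes were 0.22 for Syt11 and 0.65 for Syt16, and the latter passed (adjusted p = 0.0276).

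Among 10 proteins of the vesicle membrane and its surface, 8 fell. Syp, which encodes synaptophysin, lay at 3.50, 2.64 and 3.05 against 6.11 on both normal brain arrays, a fall of 8.28-fold (-3.05 ± 0.28, adjusted p = 0.000987). The synapsins, which tether vesicles in the reserve pool, all fell. Syn1 lay at 3.39, 2.90 and 3.38 against 5.80 and 5.71 (-2.53 ± 0.21), Syn2 fell by 2.58 ± 0.22 and Syn3 by 2.21 ± 0.21. Rab3a, the most abundant GTPase of synaptic vesicles, lay at 4.49, 3.90 and 4.81 against 7.12 and 7.03 and fell 6.38-fold (-2.67 ± 0.29, adjusted p = 0.00173). Rab3c fell by 2.17 ± 0.33. Rab3b lay at 1.92, 2.91 and 3.22 against 3.72 and 4.18, below normal brain on every glioma array, but its change of -1.27 ± 0.43 missed the threshold (adjusted p = 0.0575). It passed without glioma replicate 1 (-0.89, adjusted p = 0.042) or 3 (-1.54, adjusted p = 0.0424), and with normexp (-1.26, adjusted p = 0.0423). It did not pass without glioma replicate 2 (-1.38, adjusted p = 0.0987). In the authors' unscaled values it did not pass either (-0.91, adjusted p = 0.138).

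SV2 proteins are transporter-like glycoproteins of the vesicle membrane. Sv2a, the target of the antiepileptic levetiracetam, lay at 0.90, 0.40 and 0.59 against 3.68 and 3.64 and fell by 3.03 ± 0.19, or 8.17-fold (adjusted p = 0.00051). Sv2b lay at 0.35, -0.78 and -0.14 against 3.31 and 3.08 and fell by 3.39 ± 0.35. Sv2c, best known from striatum and brainstem, differed between the gliomas instead. Its brightest probe lay at -1.21 and 0.39 on glioma arrays 1 and 2 and at -5.26 on array 3, against -4.72 and -4.29 in normal brain. On that probe gliomas 1 and 2 were thus above and glioma 3 below both normal brains. The change of 2.48 ± 1.67 did not pass (adjusted p = 0.266). Without glioma replicate 3 it was 4.09 and passed (adjusted p = 0.0102), and without replicate 2 it was 1.27. The dimmer probe gave -1.79, with gliomas 1 and 2 below both normal brains and glioma 3 the highest glioma. With probes averaged the change of Sv2c was 0.34 (adjusted p = 0.625).

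All 3 vesicular glutamate transporters fell. Slc17a6 (VGLUT2), typical of thalamus, hypothalamus and brainstem, lay at -3.42, -4.61 and -3.71 in glioma against 2.39 and 1.73 in normal brain. Its change was the largest of the release genes, -5.97 ± 0.42 (adjusted p = 0.000584), or -5.08 with normexp. Slc17a7 (VGLUT1), typical of cortex, hippocampus and cerebellum, lay at 0.09, -1.73 and -0.80 against 2.41 and 2.27, a fall of 3.15 ± 0.54 (adjusted p = 0.00681). Slc17a8 (VGLUT3), found in small groups of neurons, lay at -3.64, -3.69 and -3.26 against -0.88 and -1.53 and fell by 2.32 ± 0.26, or by 1.71 with normexp. The labels do not say which brain regions were sampled.

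In the active zone, 8 of 9 genes fell. Bsn (Bassoon) lay at 1.05, 0.38 and 0.77 against 4.19 and 4.09, a fall of 10.6-fold (-3.41 ± 0.23, adjusted p = 0.000549), and Pclo (Piccolo) at 2.40, 2.10 and 2.45 against 4.01 and 4.10, a fall of 3.33-fold (-1.74 ± 0.17, adjusted p = 0.00116). The RIM genes Rims1 and Rims2, whose products link vesicles to calcium channels, fell by 2.33 ± 0.20 and 1.42 ± 0.16. Erc2, an ELKS family scaffold, fell by 1.65 ± 0.25, and Nrxn3, a presynaptic adhesion receptor, by 2.25 ± 0.17.

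Munc13 proteins prime vesicles for fusion, and 2 of their 3 genes fell. Unc13a, the main isoform of forebrain synapses, lay at -4.90, -5.09 and -4.73 against -1.75 and -1.82 and fell by 3.12 ± 0.16 (adjusted p = 0.000403), or by 1.85 with normexp. Unc13b, also expressed outside neurons, lay at 1.96, 1.90 and 1.22 against 2.50 and 2.45, below normal brain on every glioma array without passing (-0.79 ± 0.27, adjusted p = 0.0579). It passed without glioma replicate 3 (-0.55, adjusted p = 0.0204) and with normexp (-0.70, adjusted p = 0.0431). It did not pass without glioma replicate 1 (-0.92, adjusted p = 0.0567) or 2 (-0.89, adjusted p = 0.0789). In the authors' unscaled values it did not pass either (-0.43, adjusted p = 0.309). Unc13c, the cerebellar isoform, lay at -0.40, -2.64 and -0.46 against 1.19 and 1.13. Glioma 2 was far below the others, and the fall of 2.33 ± 0.74 was close to the threshold (adjusted p = 0.0483). The call was lost without glioma replicate 1 (adjusted p = 0.0544) or 3 (0.0586), and without glioma replicate 2 the change was -1.59 (adjusted p = 0.00388). Without normal brain replicate 1 or 2 the change was -2.30 or -2.36 and did not pass. The call was also lost with quantile normalization (adjusted p = 0.0511), in the authors' unscaled values (0.05065) and without the detection filter (0.0537). It was kept under the other processing alternatives, as with normexp (adjusted p = 0.0278).

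The 3 genes of vesicle retrieval all fell, with a median change of -1.80 against -2.76 for the SNARE genes. Dnm1, the neuronal dynamin that cuts vesicles from the membrane, lay at 5.03, 4.56 and 5.12 against 7.59 and 7.45 and fell 6.13-fold (-2.62 ± 0.22, adjusted p = 0.000807). Snap91 (AP180), a clathrin adaptor of nerve endings, lay at 0.52, 0.11 and 0.32 against 2.12 and 2.13 and fell by 1.80 ± 0.17. Amph (amphiphysin) lay at 4.01, 3.82 and 4.28 against 5.30 and 5.35 and fell by 1.29 ± 0.18.

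In ratios between related genes on the same array, a scaling factor common to the array cancels. Of 20 pairs listed, 19 could be measured. On brightest probes, the ratio on every glioma array lay on the same side of both normal brain arrays for 11 pairs. Their exact two-sided permutation p was 0.1, the smallest that 3 arrays against 2 allow, or 0.2, and after adjustment over the 19 pairs the smallest was 0.237. Among single genes tested, the groups did not overlap in 74.1%. The share among other gene pairs was not computed, so the count of 11 has no background to be read against. Relative to Syt1, Syt11 was higher by 2.79, 3.47 and 3.40 on glioma arrays 1 to 3, a mean difference of 3.22. Relative to Cplx1, Cplx2 was higher by 1.60, 2.82 and 3.20 on its brightest probe, a mean of 2.54. With probes averaged the mean was 1.70, and on the probe with the largest fall it was 0.32. Unc13b over Unc13a was higher by 2.60, 2.73 and 1.69, or by 1.15 on average with normexp. On brightest probes, Rims2 over Rims1, Pclo over Bsn, Cplx3 over Cplx1, Rab3b over Rab3a and Sv2c over Sv2a were also higher on every glioma array. Other probes of Pclo gave changes down to -3.08, against -3.41 for Bsn. The dimmer Sv2c probe gave -1.79, against -3.03 for Sv2a. Ratios by array were not computed on those probes. In the opposite direction, Vamp1 over Vamp2 was lower by a mean of 1.54 (-1.17, -1.76 and -1.70), Slc17a6 over Slc17a7 by a mean of 2.82 (-3.23, -2.60 and -2.64) and Syt4 over Syt1 by a mean of 0.87. For the other pairs the groups overlapped, as for Syn2 over Syn1 (-0.05) and Syt7 over Syt1 (0.02, or 0.73 with probes averaged).

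**Figure D2:**
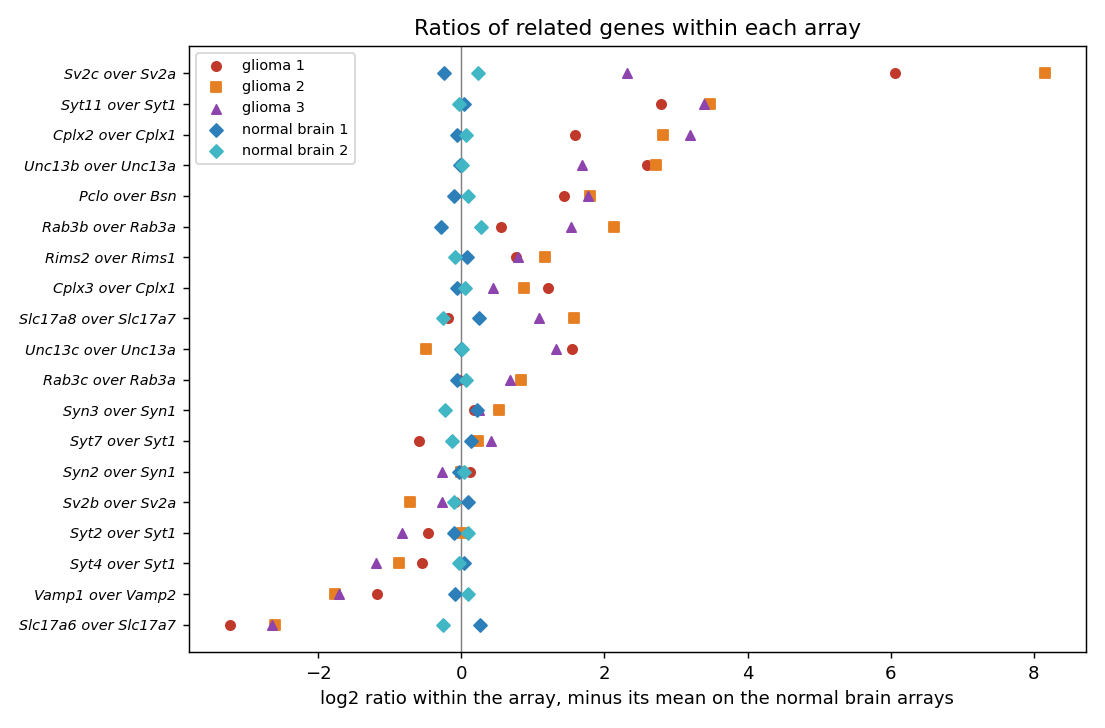
Log2 ratio of 2 related genes within each array, minus its mean on the normal brain arrays, for 19 pairs ordered by the mean of the gliomas. Syt11 over Syt1 lies at 2.79 to 3.47 in glioma and Slc17a6 over Slc17a7 at -3.23 to -2.60, while Syn2 over Syn1 stays near 0 on all arrays.

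Of 11 genes with several detected probes, 10 had all of them lower in glioma, and Sv2c had opposite directions. Whether probes of a gene differed was not tested. The Rims1 probes gave close values, -2.33 ± 0.20 and -2.67 ± 0.22, while other genes had wider ranges. The 4 probes of Cplx2, all designed to 1 RefSeq transcript, gave changes of -0.91, -3.13, -1.68 and -1.27. The second of these lay at 3.85, 3.28 and 3.72 against 6.73 and 6.77 and fell by 3.13. The order of the gliomas differed too, with glioma 3 highest on the other 3 probes and glioma 1 on this probe. Piccolo probes ranged from -3.08 to -0.88, neurexin 3 probes from -2.79 to -0.83 and Rab3c probes from -3.52 to -2.17. The dimmer Sv2c probe lay at -5.34 and -4.93 on glioma arrays 1 and 2 and at -1.71 on array 3, against -3.32 and -1.08 in normal brain, so glioma 3 was the highest glioma there and the lowest on the brighter probe. The files do not place the probes on exons, and the part of transcript variants in these differences was not tested.

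**Figure D3:**
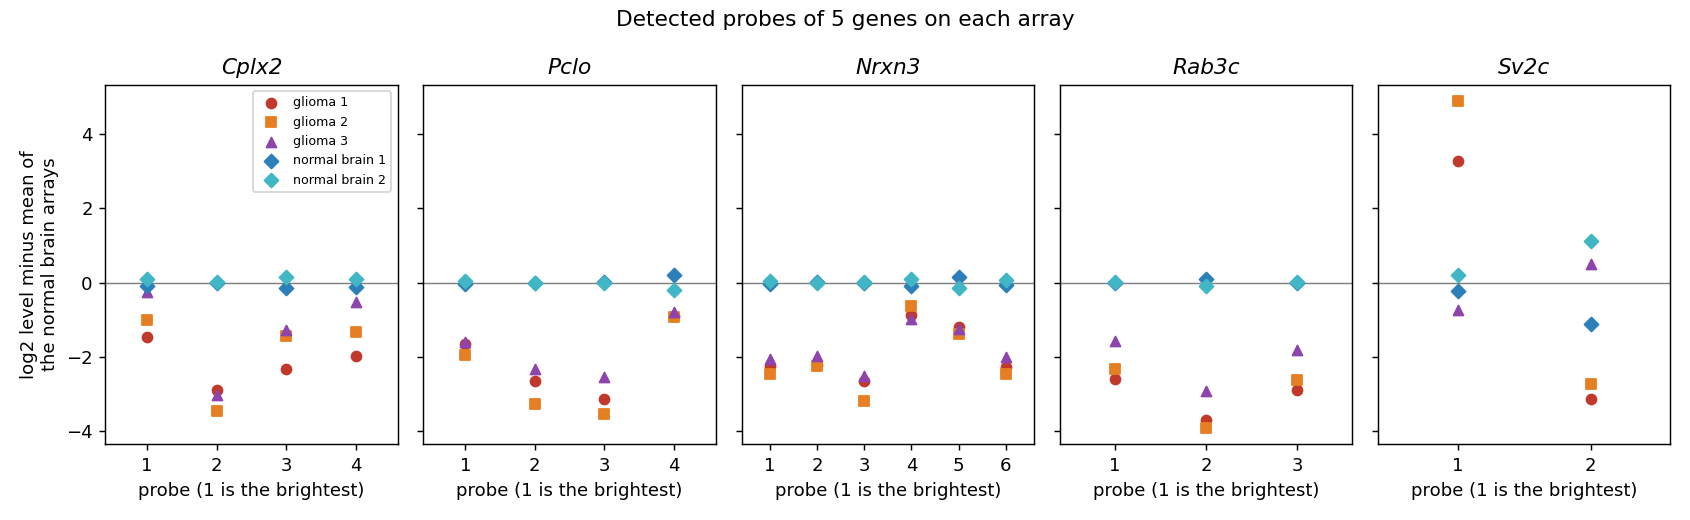
Log2 level of each detected probe minus its mean on the normal brain arrays, by array, for 5 genes with several probes; probe 1 is the brightest and the others have no order. The Cplx2 probes range from -0.91 to -3.13 in mean change, and the 2 Sv2c probes place gliomas 1 and 2 on opposite sides of normal brain.

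Other genes of release and traffic were taken from 4 lists for comparison, beside 27.8% of all genes tested called lower and 23.6% called higher. Release paralogs and partners fell in 30 of 34 genes tested, none rose, and their median was -2.11. Rph3a (rabphilin, a Rab3 effector), Synpr (synaptoporin) and Slc30a3 (the vesicular zinc transporter) fell by 4.34 ± 0.38, 4.04 ± 0.35 and 3.28 ± 0.30. The count of falls in this list was 22 without normal brain replicate 1 and 21 without replicate 2. The V-ATPase, the proton pump that powers transmitter loading and also acidifies lysosomes of all cells, fell in 15 of 16 genes with a median of -1.36. Its falls were led by Atp6v1g2, a brain-enriched subunit (-3.47 ± 0.38), with Atp6v1c1 (-2.02 ± 0.19) and Atp6v1b2 (-1.81 ± 0.19) next. The count was 8 without normal brain replicate 1 and 9 without replicate 2.

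Lists of general traffic genes had smaller median changes. Of 23 genes of clathrin-mediated endocytosis, 14 fell and 3 rose, with a median of -0.74. The neuronal auxilin Dnajc6, endophilin A1 (Sh3gl2) and Pacsin1 fell by 3.00 ± 0.22, 2.32 ± 0.23 and 2.04 ± 0.25, whereas the scaffold genes Itsn1 and Itsn2 rose by 1.45 ± 0.46 and 0.70 ± 0.21. Without normal brain replicate 1, or without replicate 2, 7 fell and none rose, and 9 genes fell in the authors' unscaled table. Of 29 general SNAREs and cofactors, 9 fell and 1 rose, with a median of -0.30; 27.8% and 23.6% of all genes tested were called lower and higher, so the falls in this list were near that background. Snap47 and Snap23, relatives of SNAP-25, fell by 2.33 ± 0.25 and 1.92 ± 0.59, Napg (gamma-SNAP) fell 3.85-fold, and Vamp3, the vesicle SNARE of recycling endosomes, rose by 1.29 ± 0.14. The counts in this list were 4 lower and 5 higher in the unscaled table, and 4 fell without normal brain replicate 1 or 2.

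**Figure D4:**
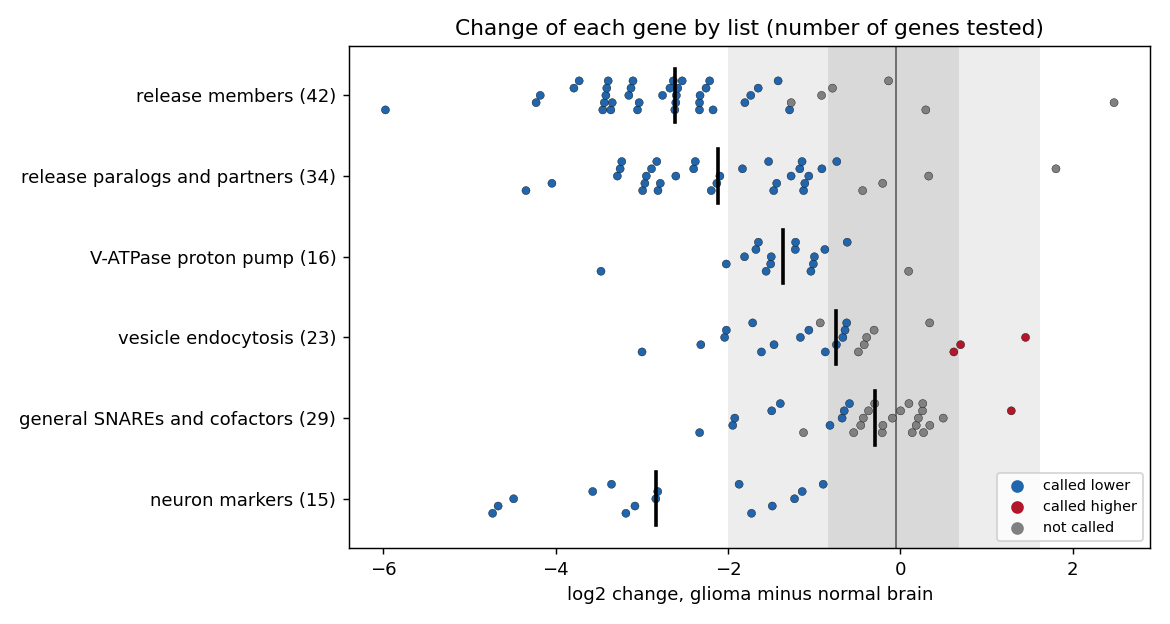
Log2 change of every gene tested in the release members, 4 lists of related genes and a list of neuron markers; each point is a gene, the black bar the list's median, and the grey bands the middle 50% and 80% of all genes tested around their median (line). Medians are -2.61 in the release members, -2.84 in the neuron markers and -0.30 in general SNAREs and cofactors.

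Neuron markers moved with these genes, while markers of other cell types moved in both directions. As background, 27.8% of all genes tested were called lower and 23.6% higher. All 15 neuron markers tested fell, with a median of -2.84, and so did all 10 markers of GABAergic neurons, with a median of -3.25. The summed signal of the neuron markers was 15.4% to 20.1% of the normal brain mean on the glioma arrays, and that of the release genes 19.55% to 27.9%. Signals were summed on the linear scale, so bright probes weigh most. On glioma array 3 the highest release levels were those of Cplx2 (6.58) and Syt11 (5.70), which did not pass. The normal brain arrays lay between 99.1% and 100.9% for the release genes. In the other direction, 9 of 10 markers of oligodendrocyte progenitors and all 9 cell division genes tested rose, to summed signals of 883% to 1005% and 2528% to 4579%. Of 10 microglia and macrophage markers 6 rose, with summed signals of 130% to 358%. Oligodendrocyte markers fell in 7 of 10 genes (summed signal 21.0% to 97.3%), endothelial markers in 9 of 10 (46.8% to 59.8%), and of 10 astrocyte markers 4 fell and 1 rose (51.8% to 91.0%). The part of these changes in the levels of the release genes was not tested.

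**Figure D5:**
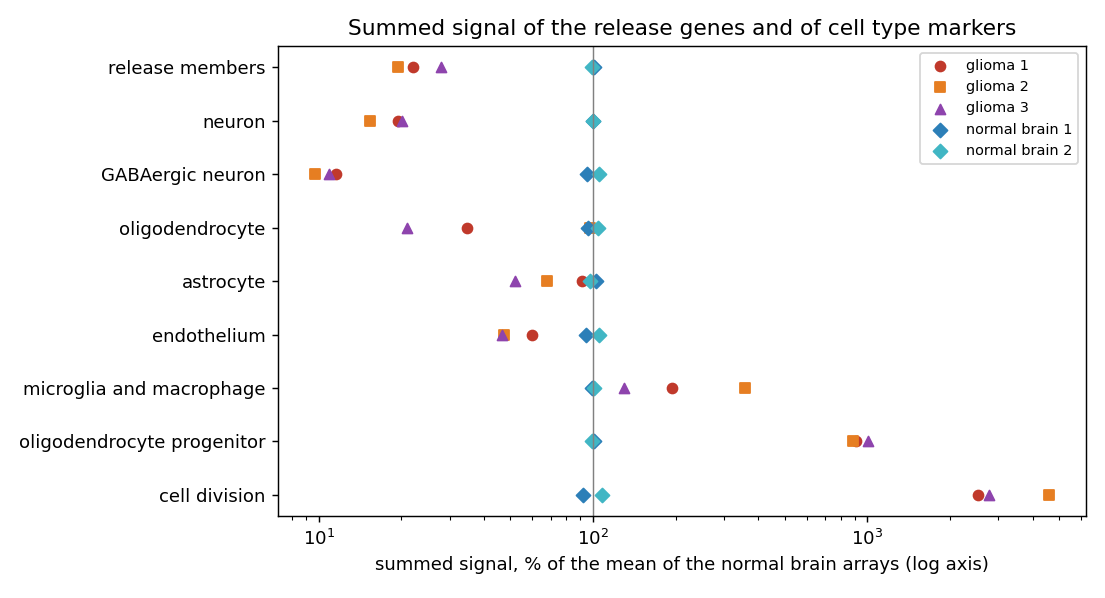
Summed signal of the release genes and of 8 marker lists on each array, as a percentage of the mean of the normal brain arrays, on a log axis. Release genes lie at 19.55% to 27.9% in glioma, next to neuron markers at 15.4% to 20.1%, while progenitor markers lie at 883% to 1005% and cell division markers at 2528% to 4579%.

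The gliomas also differed among themselves. Over the 40 genes detected on all 5 arrays, glioma 2 had the lowest level in 31 and the highest in 1, whereas glioma 1 was lowest in 6 and glioma 3 in 3. Among the 4221 genes called lower and detected on all arrays, glioma 2 was the lowest in 38.9%, glioma 3 in 39.3% and glioma 1 in 21.8%. The median deviation of the 42 genes from the normal brain mean was -2.46, -2.96 and -2.51 on glioma arrays 1 to 3. Glioma 2 also had the lowest summed neuron markers (15.4%) and the highest microglia and macrophage (358%), cell division (4579%) and oligodendrocyte markers (97.3%). The standard deviation over the 3 gliomas had a median of 0.36 in the release genes, against 0.26 over all genes tested and 0.067 between the normal brains in the release genes. It was largest in Sv2c (2.91), Unc13c (1.28) and Slc17a7 (0.91). On brightest probes, glioma 1 was instead the lowest in Snap25, Syt7, Cplx2, Rab3b, Rab3c and Rims2. Glioma 2 was the lowest on another probe of each of Syt7, Cplx2 and Rab3c.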

How the data were processed

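The deposited scanner files hold the intensity of each spot, which the authors obtained with Agilent Feature Extraction 10.7.3.1 (submitters' processing notes), with background subtracted and detrended and no scaling between arrays, per the file headers. A second table, deposited by the authors in log2, correlated at 1 with the log2 processed signal of every array. Here, control spots and outlier flags were left out, spots of a probe averaged, and each array's 75th percentile subtracted from its log2 signals. Of 55681 probes, 28026 were named through RefSeq accessions (GRCm38.p6 table); the array design is on another build, so coordinates are those of the promoter table only. The brightest probe stood for each gene, and the 16891 genes that 2 or more arrays detected well above background were fitted with limma 3.58.1 in R 4.3.3 (lmFit, eBayes, two-sided, Benjamini-Hochberg), a fit tested on simulated data. Python 3.11.15 and matplotlib 3.10.9 drew the figures. All release genes could be named, and of each related list the called genes of largest change, up to 3 in the direction of most calls and up to 2 opposite ones, and markers by list. Genes, lists, pairs and motifs were chosen with earlier results of these data known. Alternatives changed background correction, scaling, probe choice, detection filter, samples and pairing. The files hold no mean spot signal, so normexp (offset 50) used the median signal.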

Additional observations from a re-analysis of the deposited data

How the results depend on the processing

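Array number limits every value, and dim probes (Syt2, Syt12, Unc13a, Slc17a8) limit the size of a change. The release genes called lower numbered 35 to 38 under every alternative and when any 1 array was left out (35 to 38). None was called higher, except 1 in the authors' unscaled table (Syt16) and 1 with the replicate block or without glioma replicate 3 (Sv2c), so that leaving out arrays gave 0 to 1. All 42 kept their direction under each alternative that tested them, except Syt11, which was 0.22 in the unscaled table; that table moved the median of all genes to 0.31, and 63.7% of calls were higher there. Normexp moved 6 of the 42 by over 1.5-fold and averaging of probes 3.

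Leaving out arrays gave 4630 to 9325 calls among all genes, 2626 to 4992 of them lower and 1973 to 4333 higher. In the related lists it gave 7 to 15 lower and 0 to 3 higher for endocytosis, 4 to 12 lower and 1 to 2 higher for general SNAREs, 8 to 15 lower for the V-ATPase and 0 to 1 higher for release paralogs and partners. In the unscaled table, 9 endocytosis genes fell, and 4 general SNAREs fell and 5 rose; 2 rose when scaled on probes detected on all arrays.

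Of the ratios between genes, normexp reversed Syt2 over Syt1 (1.46) and Unc13c over Unc13a (-0.25), and averaging probes reversed Syn2 over Syn1 (0.28) and Rab3c over Rab3a (-0.042); the cause was not tested.

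Replicate numbers are shared by 2 gliomas and both normal brains. Same-numbered samples deviated together with correlations of 0.0131 and 0.049. With 2 normal brains the deviations of one mirror those of the other, so these values cannot decide whether samples were paired. The labels state no covariate, and the numbers were not taken as pairs. With the replicate block, 38 release genes were called lower and 1 higher. Glioma 3 has no partner, so the changes equal those without it.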
